A study of Mus musculus with 11 samples.

Results

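The replication-dependent histone gene clusters are the 3 stretches of the mouse genome that hold most of the genes for the histones made during S phase. They were followed here in the H3K4me3, H3K27me3 and H3K36me3 ChIP-seq peaks of muscle satellite cells. Members were chosen by position: every called peak that shared at least 1 bp with Hist1 block 1 (chr13:21780000-22140000), Hist1 block 2 (chr13:23500000-23870000) or Hist2 (chr3:96015000-96080000), in build mm9. These limits were drawn after the concentration of H3K27me3 in aged cells had been seen in the same lists, so that gain is a description here and carries no test. The 8 peak lists held 314 such peaks of 212879 in all. One peak, an H3K27me3 peak of the activated cells (chr13:23499559-23500274), crossed a limit.

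Quiescent satellite cells (QSCs), the resting stem cells of skeletal muscle, had been sorted as VCAM+/CD31-/CD45-/Sca1- cells from hindlimb muscle of healthy male C57BL/6 mice. Young mice were 2 to 3 months old and old mice 22 to 24 months old. Activated satellite cells (ASCs) were, by the sample labels, young QSCs kept for 3 days on extracellular matrix in serum-containing medium, so activation and culture cannot be told apart. Fixed cells were stored until enough had been gathered, so each library pooled cells over sorts. There was 1 library for each cell state and mark: H3K4me3 and H3K27me3 in young QSCs, young ASCs and old QSCs, and H3K36me3 in young QSCs and young ASCs. With no replicate, no difference between states could be set against a replicate error and no test was made. Intervals given below are 95% Wilson intervals and cover counting error only. The lists held between 11658 and 42880 peaks and no read numbers, so the depth behind a missing peak is unknown. Peak scores, a scaled negative log10 of the MACS p-value, started at 50 (a p of 1e-05) and were comparable only within a list. Many of the strongest peaks were tied at 3100.

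Chromatin of a dividing cell is doubled in each S phase, and the histone genes supply the protein for it. H2A, H2B, H3 and H4 form the core particle around which DNA is wrapped, and H1 binds the linker between particles. Their genes are short, lack introns and end in a stem-loop in place of a poly(A) tail, and they are switched on together as cells enter S phase. Satellite cells of resting muscle rarely divide. H3K4me3 marks the start sites of genes that are active or ready for transcription, H3K27me3 is the mark set by Polycomb repressive complexes, and H3K36me3 follows elongating polymerase along gene bodies. A site with H3K4me3 and H3K27me3 together is called bivalent.

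The RefSeq annotation lists 64 protein-coding genes with a Hist1h or Hist2h name or synonym, 54 on chromosome 13 (Hist1) and 10 on chromosome 3 (Hist2). Whether each of them lies within the block limits was not checked. Hist1 holds 6 genes for H1, 13 for H2A, 15 for H2B, 9 for H3 and 11 for H4. Hist2 holds 4 for H2A, 2 for H2B, 3 for H3 and 1 for H4. Along chromosome 13 the first run, from H2bc13 to H4bc24, has 18 histone genes. It is followed by 31 tRNA genes and the coding genes Zfp184, Pom121l2 and Prss16, and then by 5 more histone genes from H2ac12 to H2bc11. The next stretch has 41 other coding genes, 36 of them vomeronasal receptor genes (Vmn1r), and 46 tRNA genes. The run after it, from H4c8 to H4c3, has 20 histone genes and the last one, from H1f2 to H1f1, has 9, with only the iron regulator Hfe between them among coding genes. The pair H2bc1 and H2ac1, the testis forms, lies farther on, beyond Trim38 and 4 Slc17a genes. This annotation is in build GRCm38.p6 and the peaks are in mm9. It was therefore used for names, order and sequence only, and no peak below is assigned to a gene.

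Promoters from the same annotation show what the clusters have in common. The first gene of each class in gene order is given, 5′ to 3′, ending at the annotated start site, with every CCAAT and TATAAA on either strand in capitals. H2bc13 and H2ac13 are divergent, and the stretch between their start sites (GRCm38.p6 chr13:21716184-21716411, written on the plus strand, from the H2bc13 start to the H2ac13 start) serves both.
H2bc13 and H2ac13: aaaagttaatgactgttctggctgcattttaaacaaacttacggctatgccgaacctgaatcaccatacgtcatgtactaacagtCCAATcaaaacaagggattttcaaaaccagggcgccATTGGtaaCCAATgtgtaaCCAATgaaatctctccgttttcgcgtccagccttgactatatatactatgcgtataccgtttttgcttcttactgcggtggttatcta
H3c10: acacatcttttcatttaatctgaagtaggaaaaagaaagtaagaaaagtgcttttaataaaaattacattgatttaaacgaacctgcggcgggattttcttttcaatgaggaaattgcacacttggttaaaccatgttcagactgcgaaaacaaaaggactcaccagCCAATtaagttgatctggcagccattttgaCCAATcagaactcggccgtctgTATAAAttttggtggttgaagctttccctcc
H4c11: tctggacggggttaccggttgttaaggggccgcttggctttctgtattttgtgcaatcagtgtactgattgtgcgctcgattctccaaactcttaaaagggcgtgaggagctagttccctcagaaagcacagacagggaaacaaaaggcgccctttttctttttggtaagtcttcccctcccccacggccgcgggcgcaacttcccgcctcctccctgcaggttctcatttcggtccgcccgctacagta
H1f5: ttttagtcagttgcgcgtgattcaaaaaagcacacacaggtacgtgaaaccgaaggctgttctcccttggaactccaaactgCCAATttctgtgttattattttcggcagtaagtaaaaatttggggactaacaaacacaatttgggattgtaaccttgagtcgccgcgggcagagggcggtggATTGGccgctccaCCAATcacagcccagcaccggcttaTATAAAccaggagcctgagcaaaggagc
H3c15: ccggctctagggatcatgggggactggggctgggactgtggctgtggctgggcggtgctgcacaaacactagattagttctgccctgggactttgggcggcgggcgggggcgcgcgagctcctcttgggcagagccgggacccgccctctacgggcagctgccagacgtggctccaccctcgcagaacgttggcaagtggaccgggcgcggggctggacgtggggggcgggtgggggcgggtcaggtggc
The H3c10 sequence is GRCm38.p6 chr13:21717378-21717627 on the plus strand, H4c11 is chr13:21734784-21735033 on the plus strand, H1f5 is chr13:21780626-21780875 on the minus strand, and H3c15, the first H3 gene of Hist2, is chr3:96239128-96239377 on the minus strand. The divergent stretch holds 4 CCAAT letters counted on both strands within its 228 bases and no TATAAA, H3c10 holds 2 CCAAT and 1 TATAAA, H1f5 holds 3 and 1, and neither H4c11 nor H3c15 holds either in these 250 bases. Of the 64 genes, 59 had a promoter in the RefSeq table, as 60 entries. Their 250 upstream bases held CCAAT (or ATTGG) in 50 of 60, against 33.8% of all 32851 promoters of the table. The share was 17 of 17 for H2A, 16 of 16 for H2B, 6 of 6 for H1, 8 of 10 for H3 and 3 of 11 for H4. By cluster it was 44 of 52 for Hist1 and 6 of 8 for Hist2, so H3c15 does not stand for Hist2 in this. TATAAA (or TTTATA) was present in 28 of 60 against 12.4% of all promoters. The octamer ATTTGCAT (or ATGCAAAT) was present in 13 of 60 against 1.60%, and these were 6 of 17 H2A and 7 of 16 H2B entries and no H1, H3 or H4 entry. The H2A and H2B entries of a divergent pair share bases, so these counts are not independent. The letters describe the promoters and say nothing of which factor is bound.

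H3K4me3 was dense over all 3 blocks in each cell state. Young QSCs had 66 H3K4me3 peaks there (26, 35 and 5 in Hist1 block 1, Hist1 block 2 and Hist2), young ASCs had 79 (37, 37 and 5) and old QSCs had 61 (25, 31 and 5). Their peaks covered 12.99% of the blocks in young QSCs, 19.0% in young ASCs and 13.9% in old QSCs. The same lists covered 1.42%, 1.86% and 1.48% of all chromosomes, so the blocks stood 9.17, 10.2 and 9.38 times above the genome. The mean peak width in the blocks was 1565 bp in young QSCs, 1911 bp in young ASCs and 1813 bp in old QSCs.

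**Figure D1:**
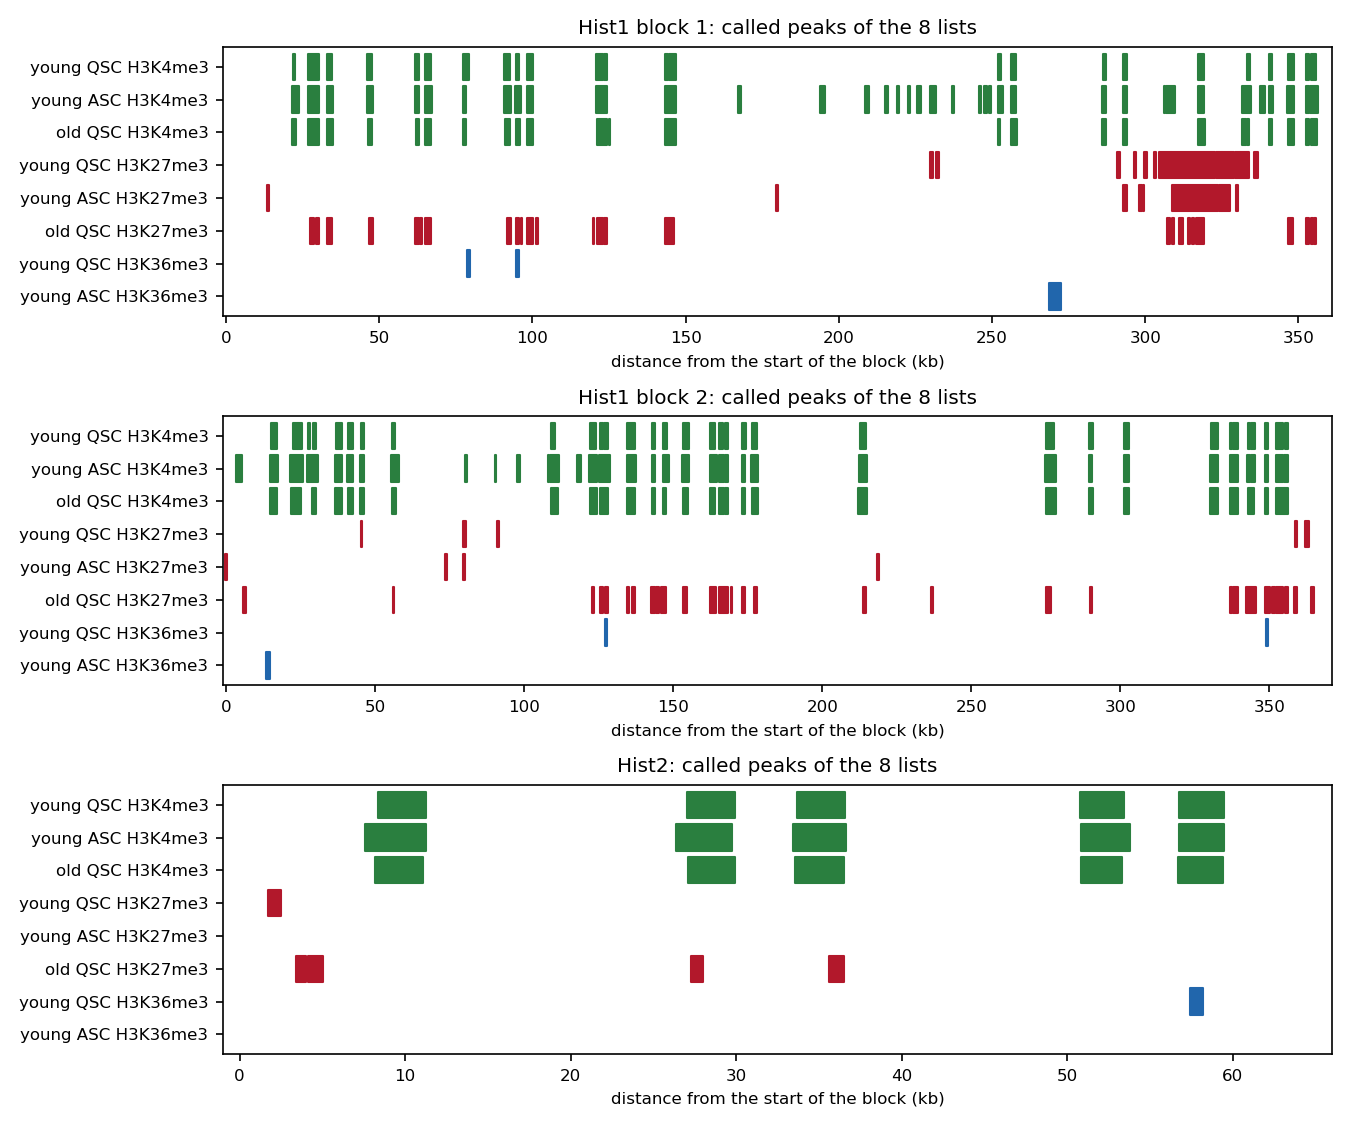
Called peaks of the 8 lists in each block, with the distance from the block's start in kb on the horizontal axis and 1 row per library (H3K4me3 green, H3K27me3 red, H3K36me3 blue; a mark spans the called peak). The H3K4me3 rows share 56 of 79 sites in all 3 states, with 15 sites of Hist1 block 1 in the row of young ASCs only, whereas the H3K27me3 rows of young cells are filled toward the end of Hist1 block 1 and the row of old QSCs follows the H3K4me3 positions.

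When the 3 H3K4me3 lists were merged, the blocks held 79 H3K4me3 sites, 39 in Hist1 block 1, 35 in Hist1 block 2 and 5 in Hist2. Of these, 56 (70.9%) were called in all 3 states, and over all chromosomes 42.4% of sites were. Young QSC peaks of the blocks recurred in young ASCs in 65 of 66 cases (98.5%, 91.9 to 99.7) and in old QSCs in 64 of 66, where 78.6% and 80.5% of all young QSC H3K4me3 peaks did so. One site was called in young QSCs only (chr13:21858630-21859401, score 58.4) and 1 in old QSCs only (chr13:21904833-21905446, score 75.6), both near the calling limit.

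A further 21 sites were called in young ASCs only, 15 in Hist1 block 1 and 6 in Hist1 block 2, which is 26.6% of the sites where 30.6% of all sites were of this kind. By block it was 38.5% in Hist1 block 1, 17.1% in Hist1 block 2 and none of the 5 sites of Hist2. Those of Hist1 block 1 lay together, between chr13:21946970 and chr13:22119122, and 4 of the 15 scored at least 1000. The widest (chr13:22086665-22089673) held 3009 bp of H3K4me3 with a score of 2211 in young ASCs and no H3K4me3 peak in young or old QSCs. H3K27me3 was present over the same site in young QSCs (score 878, 3006 bp), in young ASCs (score 1795, 951 bp) and weakly in old QSCs (score 55.3, 1473 bp). The next widest, chr13:22009617-22011792 (2176 bp, score 1256), carried 857 bp of H3K27me3 in young QSCs with a score of 105 and none in young ASCs or old QSCs. The third, chr13:21973820-21975435 (1616 bp, score 1003), carried no H3K27me3 in any state. In Hist1 block 2 the widest ASC-only sites were chr13:23503477-23505353 (score 1212), chr13:23617822-23619033 (score 227) and chr13:23597649-23598589 (score 254), all without H3K27me3. Hist2 had no site confined to 1 or 2 of the 3 states.

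The shared sites were longer in young ASCs. Among the 46 sites called as 1 peak in young QSCs and in young ASCs, 39 (84.8%, 71.8 to 92.4) were wider in ASCs, with a median ratio of 1.14, against 62.0% and a median ratio of 1.09 over all chromosomes. All 5 Hist2 sites were wider. Among the 46 sites called as 1 peak in young and old QSCs, 33 (71.7%, 57.5 to 82.7) were wider in old QSCs with a median ratio of 1.07, close to the 66.3% and 1.05 over all chromosomes. Summed over shared sites, Hist1 block 1 held 37294 bp of H3K4me3 in young QSCs, 44600 bp in young ASCs and 39513 bp in old QSCs. Hist1 block 2 held 51272, 67543 and 56617 bp, and Hist2 held 13972, 15917 and 13860 bp, in the same order. The Hist2 values of young and old QSCs thus differed little. Separate peaks were also joined in ASCs: 9 of the 51 shared Hist1 sites were split into several peaks in young QSCs, 2 in young ASCs and 4 in old QSCs. The widest site of Hist1 block 2 (chr13:23521514-23525752) was 1 peak of 4239 bp in young ASCs (score 3100), 2 peaks with 3055 bp in young QSCs (score 534) and 2 peaks with 3174 bp in old QSCs (score 506). It had no H3K27me3 in any state. Peak width rises with read depth as well as with the extent of the mark, and the read numbers of the libraries are not known.

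**Figure D2:**
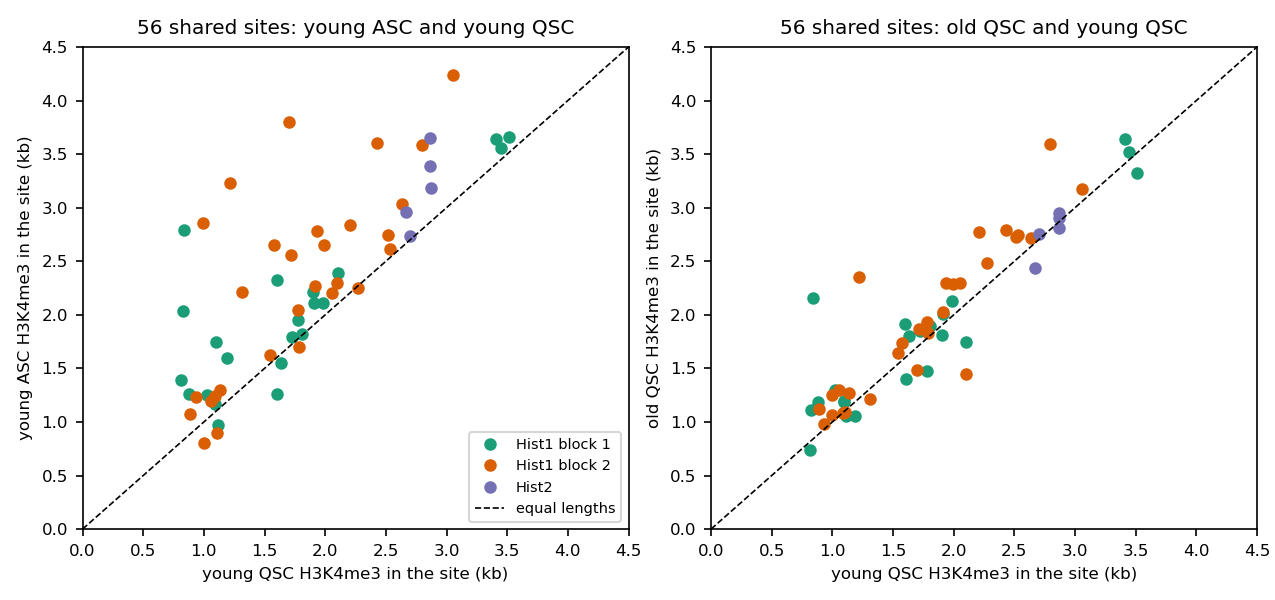
Length of H3K4me3 called within each of the 56 shared sites, in kb, for young ASCs (left) and old QSCs (right) against young QSCs; each point is 1 site, coloured by block, and the dashed line marks equal lengths. Most points of the left panel lie above the line, and those of the right panel lie closer to it.

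H3K27me3 showed another picture. Young QSCs had 21 H3K27me3 peaks in the blocks (15, 5 and 1), young ASCs had 14 (10, 4 and 0) and old QSCs had 66 (29, 33 and 4). Over all chromosomes the old list had more peaks than that of young QSCs (17635 against 11658) but covered less, 0.639% against 0.809%, with 1.85% in young ASCs. Within the blocks old QSC peaks covered 8.94%, young QSC peaks 5.14% and young ASC peaks 3.32%. In Hist1 block 2 the covered length was 4514 bp in young QSCs, 2378 bp in young ASCs and 35891 bp in old QSCs. In Hist2 it was 799 bp, 0 bp and 3062 bp. In Hist1 block 1 it was 35558, 24010 and 32109 bp, so the length alone did not separate the states there. The mean width of the H3K27me3 peaks in all blocks was 1946 bp in young QSCs, 1916 bp in young ASCs and 1077 bp in old QSCs.

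**Figure D3:**
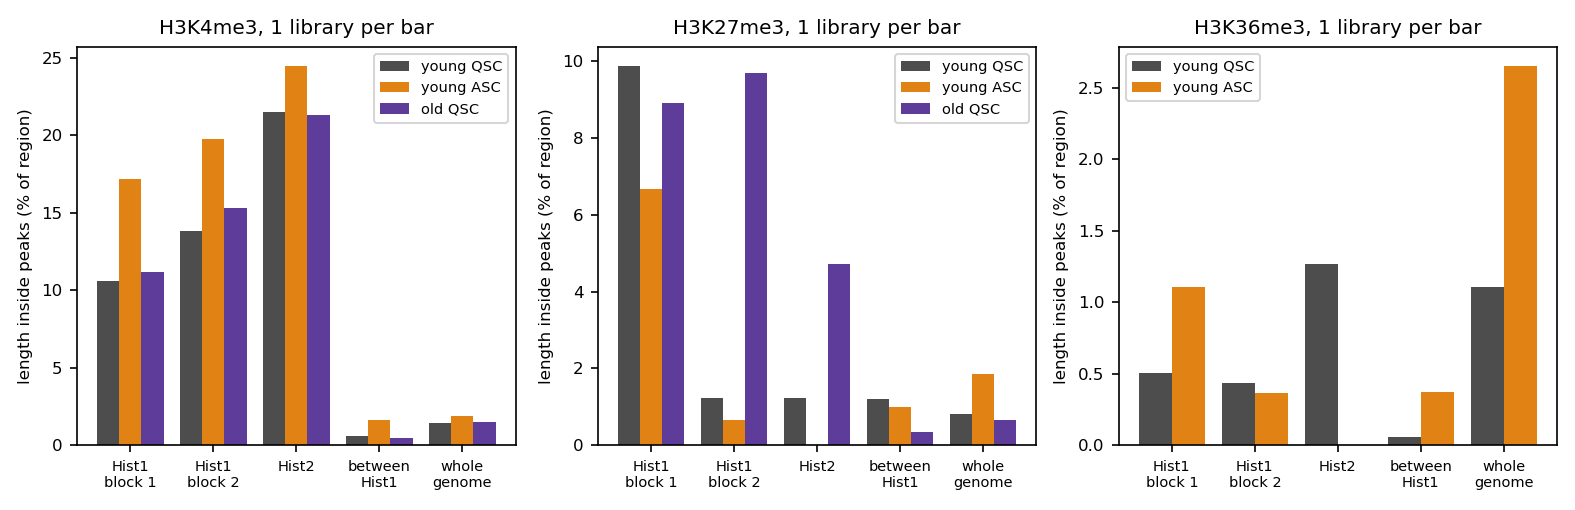
Share of each region that lies inside called peaks, in percent, for H3K4me3, H3K27me3 and H3K36me3 (panels) by cell state (colours), with 1 library per bar and no replicate. H3K27me3 of old QSCs covered 9.70% of Hist1 block 2 where young QSCs had 1.22% and young ASCs 0.643%, and 0.639% of the whole genome.

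Most of the young H3K27me3 in Hist1 block 1 lay in 1 domain, chr13:22082757-22113883, 31.1 kb long. Its limits are the start and the end of young QSC H3K27me3 peaks. The high cover and share of young QSCs in it thus follow from how it was drawn. Young QSC peaks covered 96.1% of it with 9 peaks, the widest 14637 bp long, and young ASC peaks covered 62.7%. Old QSC peaks covered 22.1%, with 7 peaks of which the widest was 2767 bp. The domain held 84.1% of the young QSC H3K27me3 length of the block, 81.3% of that of young ASCs and 21.4% of that of old QSCs. Outside it old QSCs had the most: 1.72% of the block was covered in young QSCs, 1.36% in young ASCs and 7.67% in old QSCs. The low young QSC value there follows in part from the same choice of limits. The highest young QSC peaks were chr13:22105077-22107897 (score 1034), chr13:22084416-22088306 (score 878) and chr13:22088310-22102946 (score 503), and the highest of young ASCs were chr13:22094120-22103918 (score 3100), chr13:22088723-22094016 (score 1795) and chr13:22105085-22107652 (score 818). All 6 lie within the domain.

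The other blocks held few young H3K27me3 peaks, most of them scoring below the median of their list. That median was 103 in young QSCs and 97.1 in young ASCs. In Hist1 block 2 young QSCs had peaks at chr13:23545303-23545724 (score 93.9), chr13:23579436-23580506 (score 180), chr13:23590729-23591567 (score 54.7), chr13:23858467-23859208 (score 59.0) and chr13:23861819-23863258 (score 86.2). Young ASCs had the peak across the block's limit (score 95.4) and others at chr13:23573378-23574209 (score 104), chr13:23579484-23580192 (score 58.0) and chr13:23718355-23718916 (score 64.5). The single young QSC peak of Hist2 was chr3:96016698-96017496 (score 90.4).

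In young cells H3K27me3 and H3K4me3 rarely met in the blocks. Only 3 of 66 H3K4me3 peaks overlapped H3K27me3 in young QSCs (4.55%, 1.56 to 12.5) and 3 of 79 in young ASCs (3.80%, 1.30 to 10.6), below the 14.0% and 16.9% of all H3K4me3 peaks of these lists. In old QSCs 38 of 61 did (62.3%, 49.7 to 73.4), where 28.6% of all H3K4me3 peaks did. By block these were 15 of 25 in Hist1 block 1, 21 of 31 in Hist1 block 2 and 2 of 5 in Hist2. Among old QSC H3K4me3 peaks with a score of at least 1000, the share was 32 of 42 (76.2%, 61.5 to 86.5) against 15.6% over all chromosomes. Seen from the other mark, 47 of the 66 old H3K27me3 peaks lay on H3K4me3 (71.2%, 59.4 to 80.7) where 41.3% of that list did. In young QSCs it was 3 of 21 where 27.7% of the list did, and in young ASCs 3 of 14 where 13.9% of the list did. As the blocks were chosen with the old H3K27me3 already seen, the old shares and their intervals are a description and no test.

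Most H3K4me3 peaks of the blocks that stood without H3K27me3 in young QSCs met H3K27me3 in old QSCs. Of the 63 young QSC H3K4me3 peaks of the blocks that lacked H3K27me3, 41 (65.1%, 52.8 to 75.7) overlapped H3K27me3 in old QSCs, against 11.0% of such peaks over all chromosomes, and 1 overlapped H3K27me3 in young ASCs, against 15.0%. For those with a score of at least 1000 the share was 31 of 38 (81.6%, 66.6 to 90.8), namely 13 of 15, 16 of 18 and 2 of 5 by block, against 4.34%. The blocks were chosen after this contrast had been seen, so the shares describe it and their intervals test nothing. Neighbouring peaks, and several peaks of 1 site, were each counted. Old H3K27me3 peaks of the blocks had little in common with those of young cells: 8 of 66 overlapped one of young QSCs and 6 of 66 one of young ASCs, where 26.1% and 56.4% of the old list did.

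Of the 56 H3K4me3 sites shared by all 3 states, 35 (62.5%) carried H3K27me3 in old QSCs and in neither young state. These were 13 of 22 in Hist1 block 1, 20 of 29 in Hist1 block 2 and 2 of 5 in Hist2. Over all chromosomes 374 of 17335 such sites (2.16%) did so, the 35 of the blocks included. A further 17 of the 56 had no H3K27me3 in any state (6, 8 and 3), and 4 had it in young cells. For the 35 sites the highest old H3K27me3 score ran from 50.9 to 1215 with a median of 343, and H3K27me3 peaks covered from 19.5% to 100% of the site with a median of 68.9%. In 27 of the 35 at least 50% of the site was covered. The coverage differed by block: the median was 80.0% in Hist1 block 1, 62.2% in Hist1 block 2, and 19.5% and 27.3% at the 2 sites of Hist2.

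The highest score was at chr13:23665257-23667113 in Hist1 block 2. H3K27me3 there scored 1215 and spanned 1738 bp in old QSCs, with no peak in young QSCs or young ASCs. H3K4me3 at the same site scored 2521 over 1545 bp in young QSCs, 3100 over 1625 bp in young ASCs and 2444 over 1639 bp in old QSCs. In Hist1 block 1 the highest score was at chr13:21878298-21880159, where old QSCs had H3K27me3 over 1809 bp (score 710) and young cells had none. Its H3K4me3 scored 2222 in young QSCs, 3100 in young ASCs and 2423 in old QSCs, over 1723, 1797 and 1850 bp. At these sites the old H3K27me3 spanned nearly the whole H3K4me3 site, 93.6% and 97.2% of it.

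The site with the longest old H3K27me3 in Hist1 block 1 was also its widest H3K4me3 site, chr13:21900828-21904487. Old QSCs had 2957 bp of H3K27me3 there in 2 peaks (score 700), beside H3K4me3 of 3324 bp in old QSCs, 3656 bp in young ASCs and 3513 bp in young QSCs, all with a score of 3100. In Hist1 block 2 it was chr13:23836690-23839436, with 2432 bp of old H3K27me3 in 2 peaks (score 583) and H3K4me3 of 2516 bp in young QSCs, 2747 bp in young ASCs and 2727 bp in old QSCs. Among the H3K4me3 sites of Hist2, chr3:96048433-96051614 had both the longest and the highest old H3K27me3, but only 868 bp with a score of 68.4, on H3K4me3 of 2869, 3182 and 2955 bp that scored 3100 in every state. The second Hist2 site with old H3K27me3 was chr3:96041347-96044916 (696 bp, score 66.7). Neither was called with a score of at least 100 or when the lists of a mark were cut to equal numbers of peaks. A peak off H3K4me3, chr3:96019159-96020048, was longer and higher (890 bp, score 80.9). The widest Hist2 site, chr3:96022595-96026244, had 2868, 3649 and 2904 bp of H3K4me3 and no H3K27me3 in any state. H3K4me3 peaks of Hist2 thus scored in the upper range of each list, while the old H3K27me3 there was close to the calling limit.

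The 35 sites had H3K4me3 in every state by the way they were picked. The H3K4me3 length called within the site, summed over its peaks, was greater in old than in young QSCs at 25 of the 35. Over all chromosomes 66.3% of sites called as 1 peak in both lists were wider in old QSCs, but measure and sites differ. Within the young QSC list the median highest H3K4me3 score was 2141 at the 35 sites and 534 at the 17 sites without H3K27me3, and within the old QSC list it was 2219 and 570. The young QSC score of the 35 started at 587. Of the 46 shared sites at or above that value, 8 had no H3K27me3 in any state and 3 had it in young cells. The 8 included 3 of the 5 Hist2 sites, whose young QSC H3K4me3 scores ran from 1822 to 3100. Of the 10 shared sites below 587, 9 had no H3K27me3 in any state and 1 had it in young cells. The limit of 587 was the lowest score of the 35, so none of the 35 could lie below it. It was near the median of the young QSC H3K4me3 list (587) and does not mark a high score.

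**Figure D4:**
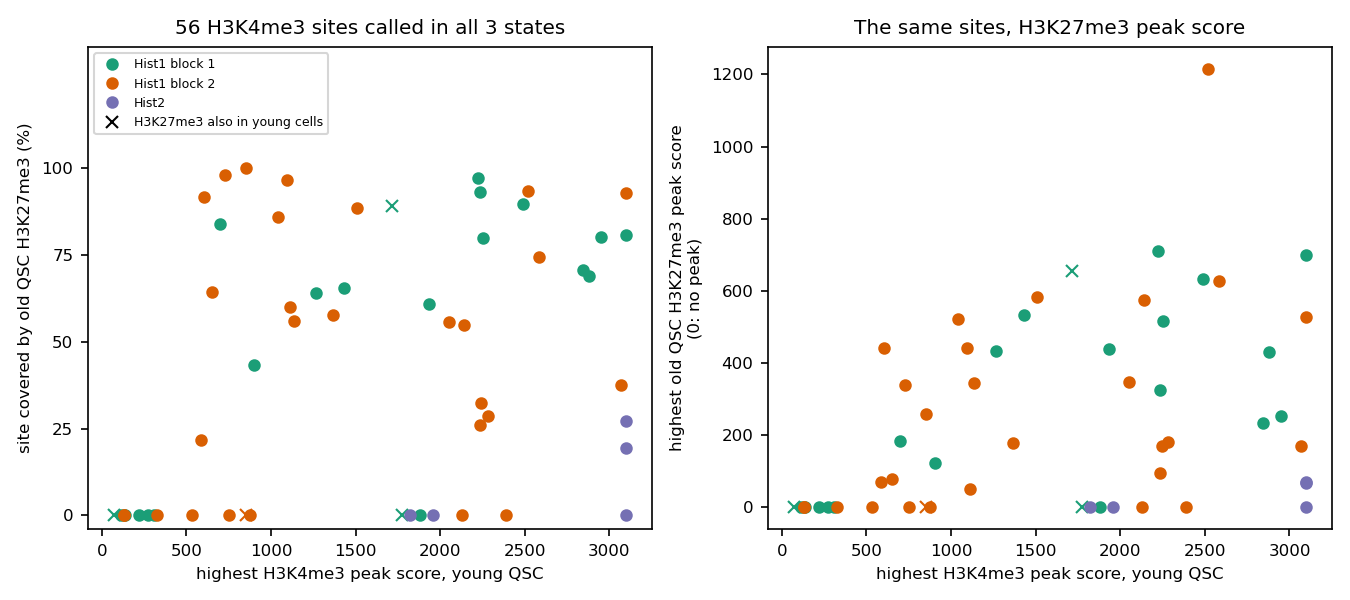
The 56 shared H3K4me3 sites by their highest H3K4me3 peak score in young QSCs, against the share of the site covered by old QSC H3K27me3 in percent (left) and the highest old QSC H3K27me3 peak score (right, 0 where there is no peak). Points are sites coloured by block. Crosses are sites with H3K27me3 in young cells, whether or not old QSCs had it. Sites with and without old H3K27me3 are both found among those with a high H3K4me3 score, and the 5 Hist2 sites lie low in both panels.

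The sites with old H3K27me3 came in runs along the chromosome, counted over consecutive young QSC H3K4me3 sites. In Hist1 block 1 there were runs of 5 (chr13:21806810-21847138), 5 (chr13:21870542-21926933) and 3 (chr13:22126467-22136290). In Hist1 block 2 a run of 14 spanned 169 kb (chr13:23621609-23790693) and a run of 5 lay near the end (chr13:23836690-23856357). The first and last sites of the run of 14 had old H3K27me3 scores of only 93.5 and 50.9. Before that run 1 marked site (score 71.2) stood alone. Most shared sites were marked, and the runs were not compared with any other arrangement. The first 5 sites of Hist1 block 2 (chr13:23514721-23542727) and 3 consecutive sites of Hist1 block 1 (chr13:22032013-22067114) had no H3K27me3 in any state. In Hist2 the 2 sites were neighbours (chr3:96041347-96051614), with 1 unmarked site before them and 2 after. The median distance between neighbouring marked sites was 9.25 kb in Hist1 block 1 and 5.79 kb in Hist1 block 2. Which of these sites start histone genes and which start the tRNA or other genes that lie among them was not determined, since gene positions in mm9 were not used here.

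Within a site, the old H3K27me3 and H3K4me3 peaks had nearly the same outline. At the 38 old H3K4me3 peaks of the blocks with H3K27me3, the shared length was a median of 73.5% of the joint length, and the centres lay a median of 102 bp apart. This was a feature of the old libraries everywhere: over all chromosomes the medians were 78.8% and 82 bp in old QSCs, against 45.0% and 406 bp in young QSCs and 44.1% and 328 bp in young ASCs. By block the shared length was 85.9%, 67.2% and 27.1%. Whether the close match of the old H3K27me3 list to H3K4me3 took part in the pattern of the blocks was not tested. The median H3K27me3 score at these peaks was 365 in the blocks and 142 over all chromosomes. The remaining 19 old H3K27me3 peaks of the blocks lay off H3K4me3 and scored 50.7 to 108. Of these, 6 lay in the young domain of Hist1 block 1 and 6 within 1 kb of an H3K4me3 peak.

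Old H3K27me3 peaks that overlapped no H3K27me3 peak of young cells numbered 7498 over all chromosomes, and 58 of them (0.774%) were in the blocks. With a score of at least 100 it was 40 of 1824 (2.19%), with at least 200 it was 29 of 194 (14.9%), with at least 300 it was 26 of 48 and with at least 500 it was 11 of 12. The share was higher among those that also lay on H3K4me3 of all 3 states. Of these 404 peaks, 46 (11.4%) were in the blocks. With a score of at least 100 it was 38 of 108, with at least 200 it was 29 of 36, with at least 300 it was 26 of 28, and with at least 500 it was 11 of 11. None of either kind with a score of 100 or more lay in Hist2. When all chromosomes were divided into windows of 100 kb, the 6 windows with most peaks of the second kind (13, 10, 8, 4, 4 and 4) were all in the Hist1 blocks, and the next, on chromosome 7, had 3. These counts use the contrast from which the blocks were chosen, with score steps set after the values were seen, and describe how the list is laid out.

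**Figure D5:**
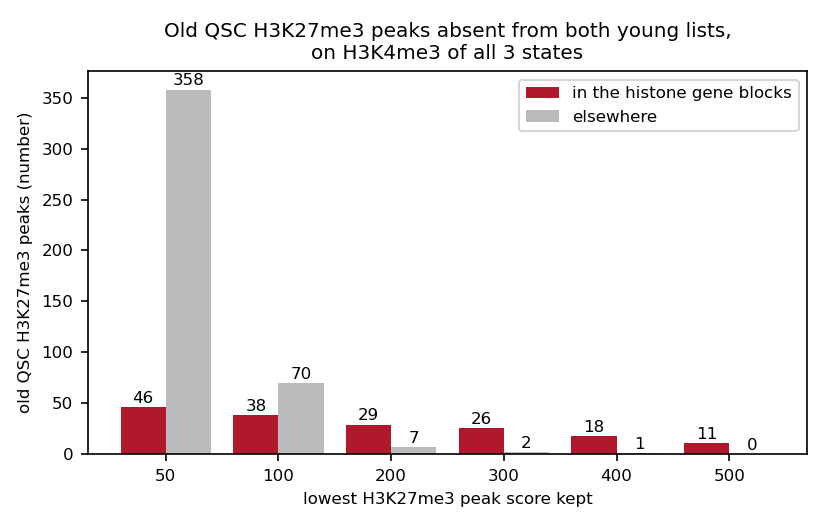
Number of old QSC H3K27me3 peaks that overlapped no H3K27me3 peak of young QSCs or young ASCs and lay on H3K4me3 of all 3 states, by the lowest peak score kept, in the histone gene blocks (red) and elsewhere (grey). The number elsewhere falls from 358 to 0 between scores of 50 and 500, and that in the blocks from 46 to 11.

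The block limits were drawn around the histone clusters with the old H3K27me3 already seen, so the surroundings are a description only. In the interval of 1359999 bp between the Hist1 blocks old QSCs had 5 H3K27me3 peaks covering 0.327%, with a highest score of 88.0, while young QSCs had 9 peaks covering 1.20% and young ASCs 12 covering 1.00%. H3K4me3 covered 0.595%, 1.63% and 0.427% of it in young QSCs, young ASCs and old QSCs. The 100 kb before Hist1 block 1 and the 100 kb after Hist1 block 2 held no H3K4me3 peak in any state and no H3K27me3 peak of QSCs, so H3K27me3 on H3K4me3 could not occur there. In the 100 kb before Hist1 block 2 H3K27me3 covered 10.9% in young QSCs, 12.8% in young ASCs and 1.47% in old QSCs. In the 100 kb after Hist2 it covered 41.2% in young QSCs, 40.1% in young ASCs and 15.9% in old QSCs, and in the 100 kb before Hist2 3.06%, 1.56% and 0%. In these 3 windows the old list covered less than either young list, as it did over all chromosomes. Relative to the genome of its own list, the window after Hist2 stood at 24.8 times in old QSCs. It stood at 50.9 times in young QSCs and 21.7 times in young ASCs. In the other windows the old value stayed the lowest on this scale.

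H3K36me3 peaks were few in the blocks, by number near the genome in young QSCs and below it in young ASCs. There were 6.29 peaks per Mb in young QSCs against 7.72 over all chromosomes, and 2.52 in young ASCs against 16.2. The single young QSC peak of Hist2 covered 1.27% of that block. Young QSCs had 5 peaks (2, 2 and 1), which covered 0.532% against 1.10% of all chromosomes, and young ASCs had 2 (1, 1 and 0), which covered 0.670% against 2.65%. The young QSC peaks were weak, with scores from 50.0 to 89.1 and widths from 772 to 935 bp, and the highest were chr13:21858579-21859513 (score 89.1), chr3:96072414-96073236 (score 61.4) and chr13:23848723-23849494 (score 56.7). All 5 lay on H3K4me3, where 15.4% of all H3K36me3 peaks of that list did. From the side of H3K4me3 this was 5 of 66 peaks (7.58%, 3.28 to 16.5) where 12.9% of all H3K4me3 peaks overlapped H3K36me3. In young ASCs 1 of 79 did (1.27%, 0.224 to 6.83) where 7.70% of the list did. The ASC peaks were chr13:22048474-22052462 (3989 bp, score 385), which lay off H3K4me3, and chr13:23513388-23514728 (1341 bp, score 278), which touched an H3K4me3 peak, where 5.62% of the H3K36me3 peaks of young ASCs lay on H3K4me3. No H3K36me3 list of old QSCs was used here.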

How the data were processed

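ChIP-seq libraries of satellite cells were analysed from 8 peak lists, 1 per cell state and mark. The 3 input samples had no list of their own here. According to the submitters' processing notes, reads were aligned with Bowtie to mm9. The authors called peaks with MACS against input for each library, and the deposited value of a peak is a score, a scaled negative log10 of its p-value, of at least 50 (a p of 1e-05; 100 stands for 1e-10). Read numbers, versions and the treatment of duplicates were not given in the sources used here. Score and width rise with depth, so a missing peak can reflect a shallow library.

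Peaks were taken as deposited. Peaks sharing 1 bp were counted as overlapping, and H3K4me3 sites are merged peaks of the 3 lists. Shares carry 95% Wilson intervals. The length of all chromosomes was taken up to the last called peak of each, 2641315139 bp in all. Overlap counting was checked on simulated peaks. Overlaps, covered lengths and widths were computed with Python 3.11.15, numpy 2.4.6, pandas 2.3.3 and scipy 1.17.1. With 1 library per group no test was made. The blocks, lists and score steps were chosen with earlier results of these data known. Sites named in the text were, in each block, the widest H3K4me3 site, those with the longest and highest old H3K27me3, up to 5 sites missing in a state (otherwise the 3 widest), and the young H3K27me3 peaks (the 3 highest where there were more than 5), together with the 3 highest H3K36me3 peaks of a list. The sites confined to young or to old QSCs, the weaker of the Hist2 sites, the Hist2 peak off H3K4me3 and the runs were named after their values were seen. Gene names, gene order and promoters came from RefSeq in GRCm38.p6, and the rule to print the first promoter of each class was set after the tables were seen. Peaks were not placed on genes, and the sorted cell type was not checked against marker genes, because the builds differ. Alternatives were a score of at least 100, equal numbers of top peaks per mark, merging of peaks less than 1 kb apart, an overlap of 50% of the shorter peak, only peaks wholly inside a block, and block limits moved by 50 kb.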

Additional observations from a re-analysis of the deposited data

How the results depend on the processing

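The peak counts of the weaker lists depended on the score limit and on merging. With a score of at least 100, H3K27me3 peaks in the blocks numbered 10 in young QSCs, 7 in young ASCs and 41 in old QSCs, and H3K36me3 peaks of young QSCs numbered 0, covering 0 bp and 0% of H3K4me3 peaks. With peaks less than 1 kb apart merged, 13 H3K27me3 peaks were left for young QSCs against 39 for old QSCs. With lists of a mark cut to equal length by score, young ASCs kept 5 H3K27me3 peaks. Limits moved out by 50 kb gave 32 H3K27me3 peaks over 43581 bp and 7 H3K36me3 peaks over 12488 bp in young ASCs, and 6382 bp of H3K36me3 in young QSCs. Recurrence of young QSC H3K4me3 in young ASCs was 100% with a score of at least 100, and no ASC H3K4me3 peak met H3K36me3 (0%) when 50% of the shorter peak had to be shared. The other 70 of 86 values over all blocks stayed within 1.5 times the value given or within its interval. Of the shared H3K4me3 sites, 35 of 56 had H3K27me3 in old QSCs only, and this became 29 of 54 with a score of at least 100, 32 of 56 with equal numbers of peaks and 30 of 51 after merging. The Hist2 sites were lost under the first of these and with equal numbers of peaks. No paired analysis was possible because there is 1 library per cell state and mark, and no library could be left out for the same reason. Without read numbers, weak sites cannot be told from shallow sequencing.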
